A study of Mus musculus with 48 samples.

Results

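Liver mRNA of 4 mice that had lost Bmal1 as adults was compared with that of 4 control mice at ZT4, 4 h into what had been the light phase. The 8 mice were taken by the genotype and time in their labels from a series of 48 mice killed at 6 times, and all 14836 genes that passed the filter on low counts were tested. All were male C57BL/6 mice of 4 to 6 months. The KO mice were Bmal1 f/f with EsrCre, a Cre recombinase active in all tissues once tamoxifen is given. The controls, labelled WT, were Cre-negative Bmal1 f/f littermates, so neither group was free of floxed alleles. Both groups received tamoxifen, 5 mg per day by gavage for 5 days, and 7 days after the last dose they were moved to constant darkness for 36 h before they were killed in the dark. Cre was present in the KO group alone, so effects of losing Bmal1 and of active Cre cannot be told apart. Tissues other than liver lost the gene too.

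BMAL1, encoded by Arntl, pairs with CLOCK or NPAS2 and switches on genes that carry E-box elements. Among these are the Per and Cry genes, whose proteins shut the pair off again, and Nr1d1 and Nr1d2, which encode the REV-ERB repressors that in turn hold down Arntl, Npas2, Cry1 and Nfil3. Dbp, Tef and Hlf encode PAR bZIP activators that act through D-box elements, where NFIL3 opposes them. In mouse liver this circuit times genes of sugar, lipid and drug metabolism over the day.

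Levels are in CPM, a gene's counts scaled to a common library total, given as mean ± SD over the 4 mice of a group. Differences are log2 fold changes, KO minus WT, ± SE from edgeR's quasi-likelihood test, with p values adjusted over all genes tested, and a gene is called at an adjusted p under 0.05. Each test was repeated without 1 mouse at a time, without both WT mouse 8 and KO mouse 5 ("without both"), by limma voom ("voom") and by limma voom with cage as a random block ("cage block"). Where one of these lost the call of a gene listed with its values, the adjusted p values reached are given. The 8 libraries held 33665865 to 33949815 counts each, and 18270 to 18575 genes had a count in a library. Correlations of each library with the others of its group lay between 0.987 and 0.989. Nothing in the labels says that mice of a group were raised apart, and mice shared cages: WT mice 2 and 3, KO mice 6 and 7, and WT mouse 4 with KO mouse 5, while WT mouse 8 and KO mouse 1 lived alone. Body weight was 29.3 g ± 2.06 in WT and 28 g ± 3.16 in KO (difference -1.25 g, two-sided exact permutation p = 0.657, n = 4 each, where the smallest possible p is 0.0286).

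In Arntl and Dbp, 1 mouse of each group stood apart from its group. Arntl was at 5.79 CPM in WT mouse 8, against 19.5 to 23.9 CPM in the other WT mice, while Dbp was at 84.4 CPM there and at 11.7 to 23.8 CPM in the others. KO mouse 5 had 4.6 CPM of Arntl and 61.8 CPM of Dbp, against 13.8 to 17.6 CPM and 6.48 to 16 CPM in the other KO mice. Both mice thus combined the lowest Arntl with the highest Dbp of their group. Without both of them 193 genes were called, 173 of which were among the calls made with all mice.

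At ZT4, 563 of 14836 genes differed between KO and WT liver (3.79%), 282 of them higher in KO (1.90%) and 281 lower (1.89%). These shares are the background for each count of called list members given below. Lists and members were chosen with earlier results of these data known, so a count above these shares is a description. At least 2-fold differences were found for 85 of the higher and 43 of the lower genes. An unadjusted p under 0.05 was reached by 2851 of the 14836 genes, both directions together. That share is the background for each count of list members at an unadjusted p. Scaling by total counts alone moved the median gene up by 0.045 on the log2 scale and split 553 calls into 385 higher and 168 lower. Calls depended on single mice: 203 genes were called without KO mouse 7, 229 without WT mouse 3, 254 without WT mouse 8, 332 without KO mouse 6, 346 without WT mouse 4 and 363 without KO mouse 1, against 486 without KO mouse 5 and 539 without WT mouse 2.

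**Figure D1:**
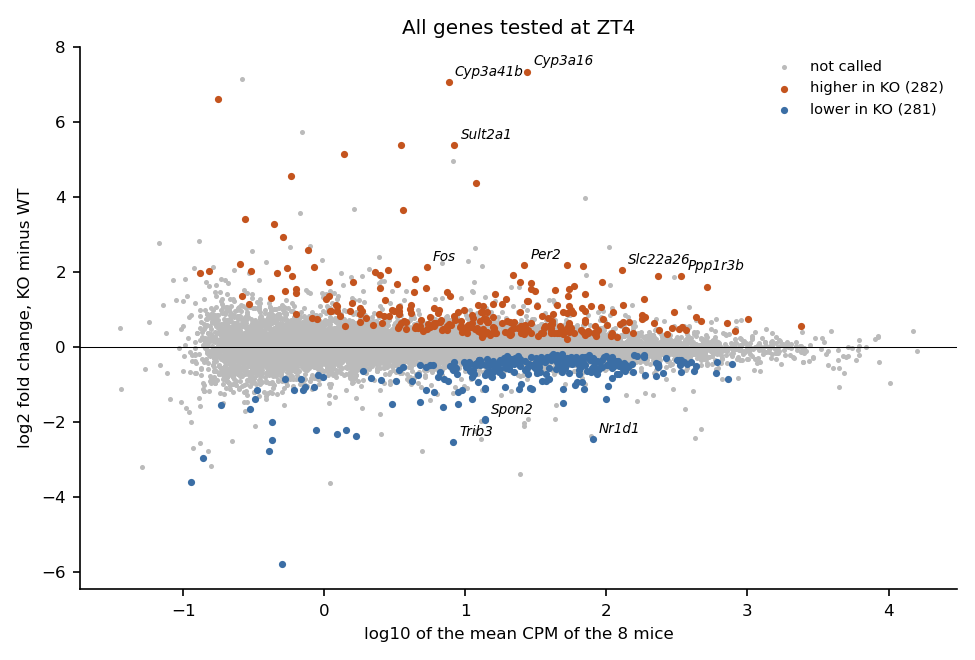
Log2 fold change (KO minus WT, n = 4 each) of every gene tested at ZT4 against the log10 of its mean CPM, 1 point per gene. The 282 genes called higher are orange, the 281 called lower blue and the rest grey, with Cyp3a16, Cyp3a41b and Sult2a1 at the top and Trib3 and Nr1d1 among the lower genes named.

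The genes of the positive arm did not pass the test at ZT4. Arntl (ENSMUSG00000055116, mm9 chromosome 7, 120350979 to 120457636) stood at 23.9, 19.5, 23.7 and 5.79 CPM in WT mice 2, 3, 4 and 8 and at 17.4, 4.6, 13.8 and 17.6 CPM in KO mice 1, 5, 6 and 7. The groups overlapped, and the difference of -0.45 ± 0.47 (adjusted p = 0.649) had a 95% interval of -1.40 to 0.51. Cre removes a part of this gene, and reads summed over all its exons are no check of that. Clock differed by -0.25 ± 0.23 (adjusted p = 0.576). Npas2, which can take the place of CLOCK, averaged 2.93 CPM ± 1.61 in WT mice and 1.60 ± 0.417 in KO mice (-0.87 ± 0.63, adjusted p = 0.462). None of these 3 genes reached an unadjusted p under 0.05, and DESeq2 and limma voom called none of them.

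Genes that BMAL1 drives through E-boxes went in both directions. Of 13 tested, Per2, Per3 and Cry1 rose and Nr1d1 fell. The list's median was 0.78 on the log2 scale, against -0.00234 over all genes, and 8 of the 13 had an unadjusted p under 0.05 with a higher level. Per2 (ENSMUSG00000055866, mm9 chromosome 1, 93312561 to 93355907), a repressor of the BMAL1 pair, was at 11.9, 7.33, 5.10 and 13.2 CPM in the WT mice and at 34.4, 41.7, 50.8 and 43.9 CPM in the KO mice. The highest WT mouse lay well under the lowest KO mouse, and the rise of 2.19 ± 0.41 (adjusted p = 0.00186) was called in each of the 8 fits that left out 1 mouse. Without both WT mouse 8 and KO mouse 5 it was 2.41 (adjusted p = 0.00607).

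Nr1d1 (ENSMUSG00000020889, mm9 chromosome 11, 98629246 to 98636647), which encodes REV-ERBα, was at 148, 130, 119 and 144 CPM in the WT mice. In the KO mice it was at 19.5, 56.7, 14.2 and 7.53 CPM, all under the WT range and highest in KO mouse 5. It fell by 2.47 on the log2 scale (SE 0.65, adjusted p = 0.0247). That call was lost without WT mice 3 and 8 and KO mice 1, 6 and 7 at 0.053 to 0.105, and held without both WT mouse 8 and KO mouse 5 (adjusted p = 0.0195). Its relative Nr1d2 differed by -0.55 ± 0.34 (adjusted p = 0.387).

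Per3 rose from 11.3 CPM ± 6.70 to 37.3 ± 14.5 (1.72 ± 0.46, adjusted p = 0.0266). The KO mice lay between 26.2 and 57.2 CPM, above the highest WT mouse at 20.4 CPM, which was WT mouse 8. The call was lost without WT mice 3 and 4 and KO mice 5 and 6 at 0.0532 to 0.0959 and without both at 0.0543. Cry1 rose from 8.97 CPM ± 2.53 to 23.8 ± 8.59 (1.40 ± 0.39, adjusted p = 0.0332). KO mouse 5, at 11.8 CPM, was next to the WT mice at 6.45 to 11.3 CPM, and the other KO mice were at 23.3 to 30.1 CPM. Of the 8 fits that left out 1 mouse only the fit without KO mouse 5 called Cry1 (adjusted p = 0.0177). The call was lost without WT mice 2, 3, 4 and 8 and KO mice 1, 6 and 7 at 0.0511 to 0.115, without both at 0.0697, by voom at 0.0681 and with the cage block at 0.0825.

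The other E-box genes did not pass edgeR's test, while DESeq2 called 5 of the list higher, with Tef and Bhlhe40 added (adjusted p = 0.0373 and 0.05). Per1 was at 7.86 CPM ± 5.09 in WT and 19.9 ± 9.86 in KO (1.34 ± 0.49, adjusted p = 0.114), Bhlhe40, a repressor at E-boxes, at 76.6 ± 19 and 137 ± 26.6 (0.84 ± 0.29, adjusted p = 0.0861), and Tef at 105 ± 46.2 and 181 ± 36.0 (0.78 ± 0.25, adjusted p = 0.0682). Tef was also called by voom (adjusted p = 0.0456), with the cage block (0.0467), with total counts alone (0.0474), without WT mouse 8 (0.0145) and without both (0.0493), and Bhlhe40 in the fit of the 8 libraries alone (0.0311). Dbp, often used as a direct readout of BMAL1, was at 23.8, 23.0, 11.7 and 84.4 CPM in the WT mice and at 16, 61.8, 14.8 and 6.48 CPM in the KO mice. With WT mouse 8 and KO mouse 5 each far above their groups, the difference of -0.53 ± 0.75 (adjusted p = 0.75) had an interval of -2.05 to 0.99, and it was -0.65 (adjusted p = 0.76) without them.

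Of 5 genes counted here that REV-ERB proteins repress, Cry1 rose and 0 fell, and that call was lost by voom at 0.0681 and with the cage block at 0.0825. Nfil3, the D-box repressor, was at 26.3 CPM ± 6.33 and 33.3 ± 9.73 (0.34 ± 0.27, adjusted p = 0.509).

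**Figure D2:**
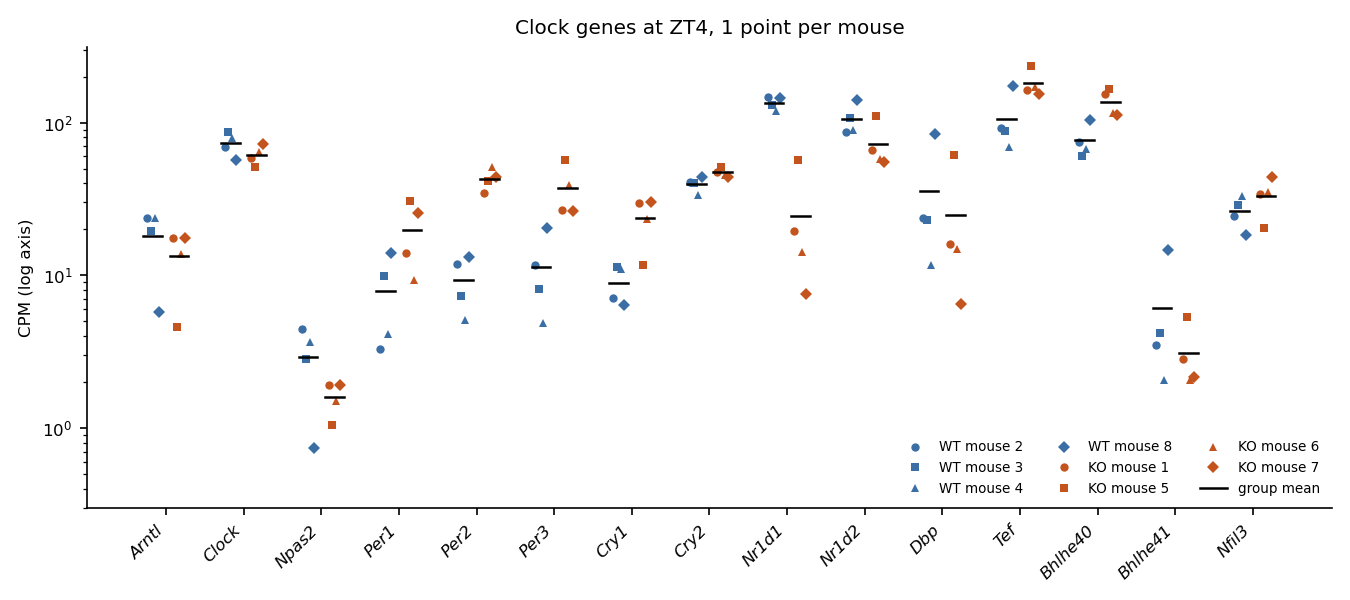
CPM (log axis) of 15 clock genes at ZT4, 1 point per mouse with its own marker, WT blue and KO orange (n = 4 each), and group means as bars. Per2 and Nr1d1 are among the genes that do not overlap between groups, whereas WT mouse 8 and KO mouse 5 (blue diamond and orange square) lie away from their groups in Arntl and Dbp.

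Promoter windows of RefSeq (build GRCm38.p6, 250 bases before to 50 after a start) were searched on both strands for the E-box CACGTG, the D-box TTATGTAA, which reads TTACATAA on the other strand, and the ROR and REV-ERB element TAGGTCA, whose other strand reads TGACCTA. They hold these letters in 7.15%, 0.938% and 2.61% of 32851 windows. Of genes tested, 11176 had a window, and an E-box stood in 11.3% of them, in 32 of 214 genes higher in KO (15%) and in 29 of 221 lower ones (13.1%). A D-box stood in 0.77% of all, in 7 of the 214 higher genes (3.27%) and in 0 of the 221 lower ones. The 7 are Per3, Slc22a26, Prlr, Wnt5b (0.92 ± 0.17, adjusted p = 0.00121), Slc16a12 (0.74 ± 0.14, adjusted p = 0.00127), Slc17a1 (0.65 ± 0.15, adjusted p = 0.0122, lost without KO mouse 7 at 0.0613) and E330016A19Rik (0.96, adjusted p = 0.0158, lost without WT mouse 3 and KO mouse 7 at 0.065 to 0.118). TAGGTCA stood in 2.55% of all, 2.8% of the higher and 4.07% of the lower genes. In the E-box list 5 of 11 genes with a window held CACGTG, namely Per1, Cry1, Tef, Bhlhe41 and Gm129. These matches describe letters in a window and do not show binding.

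The 250 bases before the start are shown for 3 genes that rose, 5′ to 3′ on the gene's strand with the motif in capitals, because they place an E-box or D-box beside a called clock gene or output: Cry1 at chr10:85185055-85185304 (minus strand, E-box), Tspan4 at chr7:141476130-141476379 (plus strand, E-box) and Per3 at chr4:151044666-151044915 (minus strand, 2 D-boxes).
Cry1: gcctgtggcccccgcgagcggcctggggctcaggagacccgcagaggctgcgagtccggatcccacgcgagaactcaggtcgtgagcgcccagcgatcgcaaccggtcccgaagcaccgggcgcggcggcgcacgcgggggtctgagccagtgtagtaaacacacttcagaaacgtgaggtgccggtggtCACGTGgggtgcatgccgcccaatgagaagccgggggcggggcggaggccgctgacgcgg
Tspan4: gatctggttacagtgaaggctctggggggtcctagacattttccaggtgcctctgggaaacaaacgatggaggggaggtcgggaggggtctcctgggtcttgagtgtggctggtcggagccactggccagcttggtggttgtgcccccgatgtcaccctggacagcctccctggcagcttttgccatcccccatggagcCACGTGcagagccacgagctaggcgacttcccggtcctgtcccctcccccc
Per3: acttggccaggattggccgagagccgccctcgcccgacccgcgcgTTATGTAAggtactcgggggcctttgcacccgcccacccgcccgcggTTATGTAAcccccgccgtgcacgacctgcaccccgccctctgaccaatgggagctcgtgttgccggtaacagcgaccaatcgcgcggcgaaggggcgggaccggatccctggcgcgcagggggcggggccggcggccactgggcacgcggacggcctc

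In Per2 and Nr1d1 the KO mice of ZT4 had levels that WT liver passes through over the day. WT liver at ZT4 was near its daily low in Per2 (9.40 CPM ± 3.82, against 75.7 ± 1.70 at ZT12) and at its daily high in Nr1d1 (135 ± 13.2, against 2.37 ± 0.849 at ZT16). The KO means of 42.7 and 24.5 CPM lay between those extremes. Against the mean of the 6 WT groups, Per2 and Nr1d1 at ZT4 in KO differed by 0.71 ± 0.28 (adjusted p = 0.219) and 0.26 ± 0.47 (adjusted p = 0.857). Over all genes, 129 (0.870%) differed from the WT daily mean, 103 higher and 26 lower, 67 of which were also called against WT at ZT4; both tests use the same KO mice and share the WT mice of ZT4. Without KO mouse 7, 27 were called, 51 without KO mouse 6 and 67 without KO mouse 1.

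Of the 282 genes higher in KO, 163 (57.8%) had their lowest WT mean of the day at ZT4, against 13.5% of all genes tested, and of the 281 lower genes 153 (54.4%) had their highest there, against 14.2%. The WT mice of ZT4 enter both the call and the rank, so these shares are a description. The KO mean lay inside the range of the 6 WT means for 188 of the higher genes (66.7%) and 226 of the lower ones (80.4%), against 82.0% of all genes.

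Mice of the other times are different animals. There the 282 genes lay above 0 in KO minus WT for 81.6% at ZT0 and 83.7% at ZT8. At ZT12 the share was 33.3%, at ZT16 it was 24.1%, and at ZT20 48.6%. The 281 lower genes lay below 0 for 84.7% at ZT0 and 88.6% at ZT8, with 28.1% at ZT12, then 16.7% at ZT16 and finally 53.4% at ZT20. Over all genes 48 to 52% lay above 0 at those times. Median differences of the higher genes were 0.24 at ZT0, 0.69 at ZT4, where they were chosen, 0.32 at ZT8 and, for the last 3 times, -0.15, -0.18 and -0.01.

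**Figure D3:**
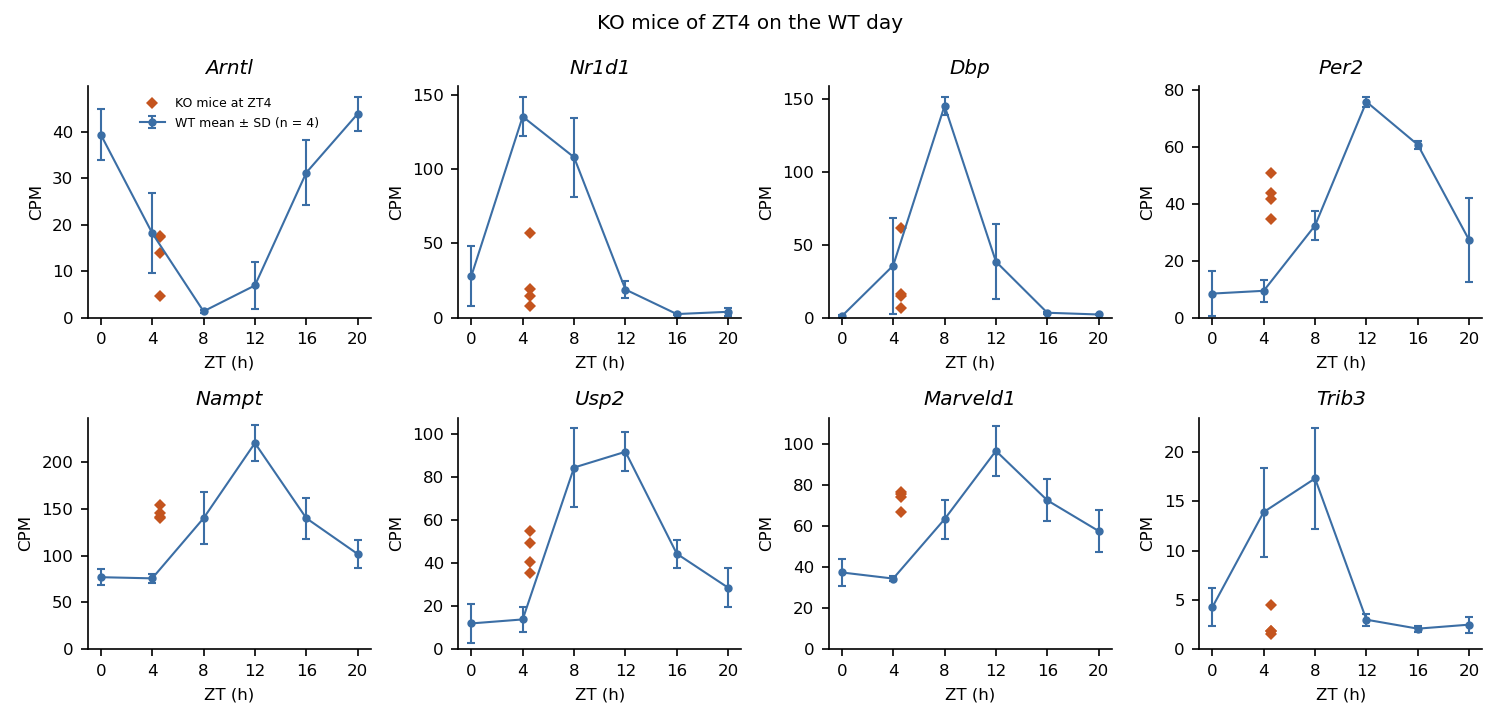
WT levels over the day (blue, mean ± SD in CPM, n = 4 mice per time) of 8 genes, with the 4 KO mice of ZT4 (orange, drawn just right of 4 h). In Per2, Nampt, Usp2 and Marveld1 the KO mice lie above WT at ZT4 and within the WT range of the day, and in Nr1d1 and Trib3 below WT at ZT4.

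Liver genes known as outputs of the clock were called more often upward than downward. Of 30 tested, 8 rose (Nampt, Wee1, Usp2, Tspan4, Tfrc, Ccrn4l, Hspa8 and Lonrf3) and Pnpla2 fell. Over all genes 1.90% rose and 1.89% fell. The median of the 30 was 0.31. Because the members were chosen with earlier results of these data known, this excess is a description. Leaving out single mice gave 6 to 8 rises, and leaving out both mice that stood apart gave 4. Lonrf3, a gene of a ring finger protein, rose from 2.16 CPM ± 1.12 to 4.57 ± 1.31 (1.07 ± 0.32, adjusted p = 0.0479, lost without WT mice 2, 3 and 8 and KO mice 1, 6 and 7 at 0.0834 to 0.194, without both at 0.113 and with the cage block at 0.0605). Nampt (ENSMUSG00000020572, mm9 chromosome 12, 33505200 to 33538234), the rate-limiting enzyme of NAD salvage, was at 75.0, 68.8, 79.4 and 80.0 CPM in the WT mice and at 141, 154, 141 and 146 CPM in the KO mice. Both groups were tight and far apart (0.94 ± 0.16, adjusted p = 0.000752).

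Wee1, a kinase that delays entry into mitosis, was at 1.45, 1.21, 2.02 and 3.19 CPM in the WT mice and at 7.09, 7.07, 6.76 and 6.60 CPM in the KO mice (1.80 ± 0.35, adjusted p = 0.00226). Usp2, a deubiquitinase, rose from 13.8 CPM ± 5.76 to 45 ± 8.75 (1.71 ± 0.33, adjusted p = 0.00257), and Tspan4, a tetraspanin, from 44.1 ± 12.5 to 90.9 ± 18.3 (1.05 ± 0.21, adjusted p = 0.00346). For Nampt, Wee1, Usp2 and Tspan4 the groups did not overlap, and each was called in all 8 fits that left out 1 mouse and without both WT mouse 8 and KO mouse 5. Ccrn4l, which encodes nocturnin, rose from 9.09 CPM ± 2.56 to 34.5 ± 15.5 (1.92 ± 0.42, adjusted p = 0.00634), and Tfrc, the transferrin receptor, from 28.6 ± 15.1 to 88.7 ± 28.9 (1.63 ± 0.34, adjusted p = 0.00433). Both held when 1 mouse was left out, but not without both mice that stood apart (adjusted p = 0.0589 and 0.0805). Pnpla2, the triglyceride lipase that starts the breakdown of fat droplets, fell from 102 CPM ± 13.1 to 67.1 ± 8.70 (-0.61 ± 0.12, adjusted p = 0.00324), and had an adjusted p of 0.0722 without both.

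Outputs of the PAR bZIP factors did not pass. None of 12 tested genes was called by edgeR, DESeq2 or limma voom, and 2 were higher and 2 lower at an unadjusted p under 0.05 (median 0.14). Alas1, the first enzyme of heme synthesis, differed by 1.06 (adjusted p = 0.194) and Por, the electron donor of cytochrome P450 enzymes, by 0.41 (adjusted p = 0.327). The fit on the 8 libraries alone called 1 of the 12 lower.

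Among genes called at 5 CPM or more the largest rises included genes that female mouse liver expresses above male liver, in these male mice. Of 29 such genes 7 rose and 0 fell, against 1.90% and 1.89% of all genes (median 1.14, against -0.00234 over all genes). The 7 were Cyp3a16, Cyp3a41b, Sult2a1, Sult2a2, Acot3, Slc22a26 and Fmo2. Single mice left out gave 2 to 7 rises, with 2 both without WT mouse 3 and without KO mouse 1. There were 4 without both mice that stood apart, 3 by voom, 2 with the cage block and 11 by DESeq2. Many of these genes belong to families of near-identical copies, among which reads may have been split.

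Cyp3a16 (ENSMUSG00000038656, mm9 chromosome 5, 146197178 to 146230592), a steroid and drug hydroxylase, had 5, 14, 22 and 5 counts in the WT mice and 4599, 339, 2488 and 269 counts in the KO mice. Every KO mouse was above every WT mouse, and KO mice 1 and 6, at 133 and 69.5 CPM, were far above KO mice 5 and 7, at 9.63 and 7.58 CPM. It rose by 7.34 ± 1.67 (adjusted p = 0.00979), in each of the 8 fits that left out 1 mouse, and was lost by voom at 0.3 and with the cage block at 0.341. Cyp3a41b, its close relative, was at 36.8, 4.29, 17.4 and 2.11 CPM in KO mice 1, 5, 6 and 7 and at 0 to 0.177 CPM in WT (7.07 ± 1.58, adjusted p = 0.00827, lost by voom at 0.262 and with the cage block at 0.304).

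KO mice 1 and 6 were also the highest for the sulfotransferases that act on steroids and bile acids. Sult2a1 was at 39.8, 2.95, 17.2 and 5.47 CPM in KO mice 1, 5, 6 and 7, against 0 to 0.943 CPM in WT (5.38 ± 1.29, adjusted p = 0.0137, lost without WT mice 3 and 8 and KO mouse 1 at 0.0529 to 0.0579, by voom at 0.127 and with the cage block at 0.152). Sult2a5 rose by 5.40 ± 1.25 (adjusted p = 0.0117, lost by voom at 0.0845 and with the cage block at 0.102) and Sult2a2 by 4.38 ± 1.18 (adjusted p = 0.027, lost without WT mice 2, 3 and 8 and KO mice 1 and 6 at 0.0508 to 0.096, without both at 0.0997, by voom at 0.0962 and with the cage block at 0.112). KO mice 1 and 6 shared no cage.

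The remaining genes of the group were spread otherwise. Acot3, a peroxisomal thioesterase, was at 12.7 to 26.1 CPM in WT and 67.9 to 106 CPM in KO (2.20 ± 0.65, adjusted p = 0.046), with no overlap, yet the call was lost without any 1 mouse at 0.0624 to 0.136, without both at 0.151, by voom at 0.0558 and with the cage block at 0.0652. Slc22a26, an organic anion transporter gene, rose from 50.0 CPM ± 32.9 to 207 ± 42.3 (2.05 ± 0.59, adjusted p = 0.0396, lost without WT mice 2, 3 and 8 and KO mice 1, 6 and 7 at 0.0665 to 0.137 and without both at 0.127). Fmo2, a flavin monooxygenase, rose from 11.4 CPM ± 2.90 to 25.3 ± 6.37 with no overlap (1.14 ± 0.28, adjusted p = 0.0164, lost without WT mouse 3 and KO mouse 1 at 0.0525 to 0.0796).

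Genes that male liver expresses above female liver lay the other way. All 26 tested had log2 fold changes below 0, from -3.38 to -0.13 with a median of -1.09, but only Cyp2u1 and Cspg5 fell by the test, and 9 had an unadjusted p under 0.05. Cyp2u1, a fatty acid hydroxylase, fell from 8.45 CPM ± 3.40 to 3.63 ± 0.717 (-1.22 ± 0.34, adjusted p = 0.0322, lost without WT mice 3 and 8 and KO mice 1, 6 and 7 at 0.0727 to 0.164, without both at 0.0727 and with the cage block at 0.0604). Cspg5, a proteoglycan gene, fell by 2.21 (SE 0.63, adjusted p = 0.0379, lost without WT mice 3 and 8 and KO mice 1, 5, 6 and 7 at 0.0579 to 0.207, without both at 0.117, by voom at 0.104 and with the cage block at 0.127). The fit of the 8 libraries alone called 6 falls, and none was called with cage as a random block or without both mice that stood apart. Among members that did not pass were Elovl3, a fatty acid elongase (-3.38, adjusted p = 0.0919), the major urinary protein gene Mup20 (-2.19, adjusted p = 0.0972) and Cyp2d9 (-1.65, adjusted p = 0.0639).

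Growth hormone, whose pulses set the sex bias of liver genes, acts through genes of which 3 of 17 rose and 0 fell by edgeR's test. Over all genes 1.90% rose and 1.89% fell. Igfbp2, which binds IGF1, fell by voom, with the cage block and with body weight in the model (adjusted p = 0.0245, 0.0282 and 0.0233), against -1.24 ± 0.39 (adjusted p = 0.062) by edgeR, and without KO mouse 1 by edgeR (0.0123). Igfals, which carries IGF1 in blood, rose from 135 CPM ± 11.1 to 225 ± 27.5 (0.73 ± 0.16, adjusted p = 0.00481, lost without both at 0.065). Igf1 rose by 0.42 ± 0.12 (adjusted p = 0.0423, lost without WT mice 2, 4 and 8 and KO mice 1, 5, 6 and 7 at 0.0583 to 0.119 and without both at 0.165), and the prolactin receptor gene Prlr by 0.69 ± 0.21 (adjusted p = 0.0489, lost without any 1 mouse at 0.0649 to 0.151, without both at 0.205, by voom at 0.0517 and with the cage block at 0.0574). Bcl6, a repressor of female-biased genes in males, and Cux2, a repressor of male-biased genes in females, did not pass (-0.86, adjusted p = 0.627, and 2.28, adjusted p = 0.272).

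Outside these lists, the largest rises included Tsku, Ppp1r3b and Fos. Tsku, which encodes a secreted hepatokine, was at 152, 118, 72.5 and 48.6 CPM in the WT mice and at 405, 363, 325 and 362 CPM in the KO mice (1.89 ± 0.41, adjusted p = 0.00657, and 0.0605 without both mice that stood apart). Fos, an immediate early gene, was at 3.63, 1.85, 2.10 and 27.1 CPM in KO mice 1, 5, 6 and 7 and at 0.806 to 3.72 CPM in WT. KO mouse 7 alone lay outside the WT range, and the difference of 2.12 ± 0.60 (adjusted p = 0.0379) was 0.34 (adjusted p = 0.801) without it. The call was also lost without WT mice 2, 3 and 8 (adjusted p = 0.0703 to 0.132), without both at 0.0727, by voom at 0.24 and with the cage block at 0.303.

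**Figure D4:**
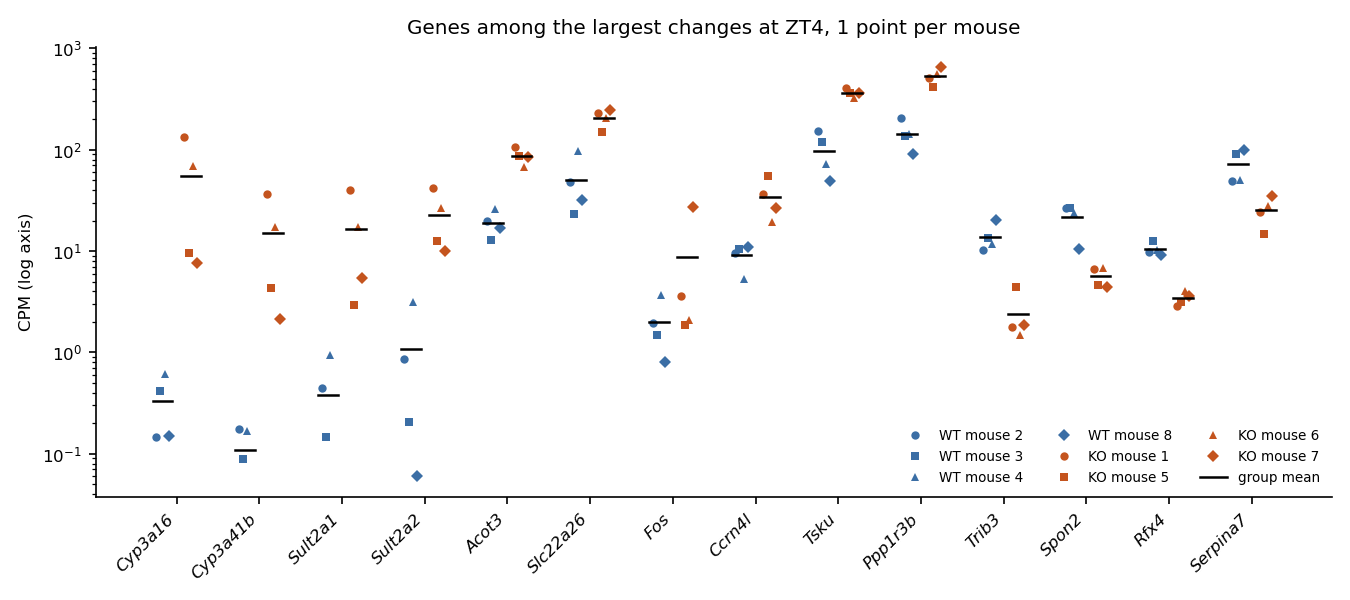
CPM (log axis) of 14 genes among the largest changes at ZT4, 1 point per mouse, WT blue and KO orange (n = 4 each), and group means as bars. WT mouse 8 was at 0 in Cyp3a41b and Sult2a1 and is not drawn there. KO mice 1 and 6 top the Cyp3a and Sult2a genes, and in Fos KO mouse 7 alone is high.

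Trib3 (ENSMUSG00000032715, mm9 chromosome 2, 152163158 to 152169768), a pseudokinase that restrains insulin signalling and responds to cell stress, had the largest fall among genes called at 5 CPM or more. It was at 10.2, 13.4, 11.7 and 20.4 CPM in the WT mice and at 1.79, 4.43, 1.48 and 1.86 CPM in the KO mice. KO mouse 5 was the highest of its group but still under each WT mouse (-2.54 ± 0.42, adjusted p = 0.000461). The other 26 tested genes of the unfolded protein response were not called by edgeR. Hspa5, the chaperone BiP, was called higher by DESeq2 (adjusted p = 0.0333), with total counts alone (0.044) and without KO mouse 6 (0.049), against 0.72 ± 0.23 (adjusted p = 0.0639) by edgeR.

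Spon2, a secreted matrix protein, fell from 21.9 CPM ± 7.74 to 5.62 ± 1.28 (-1.96 ± 0.37, adjusted p = 0.00192). Rfx4, a transcription factor, was at 9.80, 12.5, 10.3 and 9.07 CPM in the WT mice and at 2.86, 3.12, 4.02 and 3.61 CPM in the KO mice (-1.61 ± 0.31, adjusted p = 0.002). Tmem218 fell by 1.48 (SE 0.27, adjusted p = 0.00121), Fbxo21, a ubiquitin ligase subunit, by 1.38 (SE 0.25, adjusted p = 0.00127), Glt28d2 by 1.15 (SE 0.21, adjusted p = 0.00147) and Enpp3, an ectonucleotidase, by 1.14 (SE 0.21, adjusted p = 0.00167). These 6 genes and Trib3 were called in each fit that left out 1 mouse and without both mice that stood apart. Mn1 fell by 1.39 (SE 0.29, adjusted p = 0.00456) in each fit that left out 1 mouse, but had an adjusted p of 0.0697 without both. Raet1c, which encodes a ligand of the NK cell receptor NKG2D, fell by 1.53 (adjusted p = 0.0294, lost without WT mice 2 and 3 and KO mice 1 and 7 at 0.0569 to 0.108 and without both at 0.0658). Serpina7, the thyroxine-binding globulin, fell by 1.5 (adjusted p = 0.0239, lost without WT mice 3 and 8 and KO mice 1, 5 and 6 at 0.0507 to 0.0938 and without both at 0.199), and Mapk15, an atypical MAP kinase, by 1.2 (adjusted p = 0.0117, lost without KO mouse 7 at 0.0622 and without both at 0.0543).

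In glucose and glycogen metabolism 1 of 22 genes rose and 0 fell, against 1.90% and 1.89% of all genes. Ppp1r3b (ENSMUSG00000046794, mm9 chromosome 8, 36438795 to 36451178), which brings protein phosphatase 1 to glycogen, was at 204, 138, 142 and 90.8 CPM in the WT mice and at 512, 420, 555 and 648 CPM in the KO mice (1.89 ± 0.31, adjusted p = 0.000448), a call that held in every fit that left out 1 mouse. WT mouse 2 was the highest of its group and still under the KO mice. Sik1, a kinase of the fasting response, rose from 9.69 CPM ± 1.11 to 21.5 ± 3.48 (1.15 ± 0.29, adjusted p = 0.0181, lost without WT mouse 3 and KO mouse 7 at 0.0593 to 0.0613 and without both at 0.0538).

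Of 24 genes of fatty acid and triglyceride synthesis Thrsp and Srebf1 rose and Dgat1 fell. Thrsp, a lipogenic cofactor, rose by 1.61 ± 0.43 (adjusted p = 0.0276, lost without WT mice 3, 4 and 8 and KO mice 5, 6 and 7 at 0.0548 to 0.104 and without both at 0.159) and Srebf1, the master regulator of lipogenesis, by 0.94 ± 0.28 (adjusted p = 0.047, lost without WT mice 3, 4 and 8 and KO mice 1, 5, 6 and 7 at 0.0519 to 0.152 and without both at 0.189). In both, WT mouse 2 lay within the KO range. Dgat1, which makes triglyceride, fell by 0.31 (SE 0.09, adjusted p = 0.0364, lost without WT mice 3, 4 and 8 and KO mice 6 and 7 at 0.068 to 0.179 and without both at 0.0697). In fatty acid oxidation, with PPARA targets included, 2 of 30 genes fell and 0 rose, with 25 below 0 and a median of -0.18. Plin2, the coat protein of lipid droplets, fell from 508 CPM ± 93.1 to 327 ± 20.8 (-0.64 ± 0.15, adjusted p = 0.0146, lost without WT mouse 8 and KO mouse 7 at 0.0526 to 0.0734 and without both at 0.132) and Angptl4, an inhibitor of lipoprotein lipase, from 95.7 ± 38.4 to 44 ± 7.77 (-1.12 ± 0.30, adjusted p = 0.0266, lost without WT mice 3, 4 and 8 and KO mice 1, 5 and 6 at 0.0515 to 0.109, without both at 0.159, by voom at 0.052 and with the cage block at 0.0549). The list had 1 fall by voom and 1 with the cage block. Among 24 genes that make or take up cholesterol edgeR, DESeq2 and limma voom called 0, and 0 had an unadjusted p under 0.05.

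Of 27 bile acid genes, for enzymes and transporters, 1 rose and 1 fell, against 1.90% and 1.89% of all genes. Hsd3b7, an enzyme early in bile acid synthesis, was at 831, 738, 726 and 663 CPM in the WT mice and at 483, 488, 473 and 377 CPM in the KO mice (-0.70 ± 0.14, adjusted p = 0.00285). Akr1d1, a later reductase, rose from 283 CPM ± 60.4 to 409 ± 21.6 (0.53 ± 0.13, adjusted p = 0.0181, lost without WT mice 3 and 8 and KO mouse 7 at 0.0577 to 0.099 and without both at 0.166). In xenobiotic metabolism 1 of 31 genes rose and 1 fell, near the background shares: Sult1a1 by 0.81 ± 0.20 (adjusted p = 0.0185, lost without WT mice 3 and 8 and KO mice 1 and 7 at 0.0564 to 0.0874 and without both at 0.088) and Abcc3 by -0.41 ± 0.12 (adjusted p = 0.0479, lost without WT mice 2, 3, 4 and 8 and KO mice 5, 6 and 7 at 0.0664 to 0.153 and without both at 0.244). Abcc3 and Gsr (-0.32 ± 0.10, adjusted p = 0.0489, lost without WT mice 3, 4 and 8 and KO mice 5, 6 and 7 at 0.0513 to 0.191, without both at 0.267, by voom at 0.052 and with the cage block at 0.0605) were also the 2 of 24 NRF2 targets that fell.

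In amino acid catabolism (29 genes), Asl, argininosuccinate lyase, rose by 0.65 ± 0.15 (adjusted p = 0.0108, lost without WT mouse 3 at 0.0616 and without both at 0.061). Agxt, which clears glyoxylate, fell by 0.69 (SE 0.16, adjusted p = 0.0101, lost without KO mouse 7 at 0.0622) and Cbs, of the transsulfuration route, by 0.47 (SE 0.13, adjusted p = 0.0295, lost without WT mice 2, 3 and 8 and KO mice 1, 6 and 7 at 0.0529 to 0.104). In NAD metabolism Qprt, which makes NAD from tryptophan, fell by 0.60 (SE 0.14, adjusted p = 0.012, lost without KO mouse 7 at 0.0758) and Sirt5, a mitochondrial deacylase, by 0.49 (SE 0.12, adjusted p = 0.0125, lost without WT mouse 2 at 0.0616), beside the rise of Nampt. Of 22 genes of autophagy and lysosomes 2 fell and 0 rose, against 1.89% and 1.90% of all genes. Both falls were called in every fit that left out 1 mouse. Sqstm1, the p62 cargo receptor, went from 430 CPM ± 19.8 to 312 ± 45.1 (-0.46 ± 0.09, adjusted p = 0.00184) and Gabarapl1, an Atg8 homologue, from 413 ± 57.6 to 260 ± 29.2 (-0.67 ± 0.14, adjusted p = 0.00452, and 0.0613 without both mice that stood apart).

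Of 19 heat shock and cold-inducible genes tested, 5 rose and 0 fell, against 1.90% and 1.89% of all genes (list median 0.47). The 5 were Hsph1, Dnaja1, Hsp90aa1, Chordc1 and Hspa8, all chaperones or their partners. The count of rises was 1 without WT mouse 4, 2 without WT mouse 8 or KO mouse 7 and 4 to 6 without any other single mouse, and it was 2 without both mice that stood apart. In the list 1 gene was lower at an unadjusted p under 0.05. The fit of the 8 libraries alone called 7 higher and 1 lower. Dnaja1 rose by 0.63 ± 0.15 (adjusted p = 0.0136, lost without WT mouse 4 at 0.0528) and Hspa8, the constitutive HSC70, by 0.75 ± 0.20 (adjusted p = 0.028, lost without WT mice 3, 4 and 8 and KO mice 6 and 7 at 0.0535 to 0.096 and without both at 0.0972). Hsph1, a large HSP110 chaperone, was at 37.7, 32.9, 25.0 and 25.5 CPM in the WT mice and at 82.5, 79.5, 76.5 and 71.5 CPM in the KO mice (1.36 ± 0.27, adjusted p = 0.00325), and it was called in every such fit. Chordc1 was at 32.5 CPM ± 2.15 and 49.3 ± 1.05 (0.60 ± 0.16, adjusted p = 0.023, lost without WT mice 4 and 8 and KO mouse 7 at 0.0581 to 0.0674 and without both at 0.104), and Hsp90aa1 at 138 ± 30.5 and 240 ± 12.2 (0.80 ± 0.21, adjusted p = 0.0217, lost without WT mice 4 and 8 and KO mouse 7 at 0.0564 to 0.0944 and without both at 0.151).

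Of 28 cell cycle genes 5 rose and 0 fell, against 1.90% and 1.89% of all genes. Of the 28, 14 had an unadjusted p under 0.05 with a higher level. The list had 4 rises by voom and 3 with the cage block. Ccne2, a cyclin of S phase entry, was at 1.36, 0.946, 1.19 and 1.49 CPM in the WT mice and at 3.84, 3.69, 2.54 and 4.79 CPM in the KO mice (1.57 ± 0.25, adjusted p = 0.00038). Besides Wee1 and Ccne2, which held in each fit that left out 1 mouse, Mcm5 and Mcm2, subunits of the replication helicase, and Ccne1 rose by 1.45 ± 0.36, 0.99 ± 0.29 and 1.09 ± 0.28 (adjusted p = 0.0181, 0.0452 and 0.0223). Without KO mouse 7, the highest of its group in each of the 3, their adjusted p values were 0.126, 0.157 and 0.115, and the list had 2 rises. Mcm5 was also lost without WT mouse 8 (0.0841) and with the cage block (0.0675), Ccne1 without WT mice 2, 3 and 4 and KO mouse 5 (0.056 to 0.0818), and Mcm2 without each mouse but KO mouse 5 (0.0547 to 0.157), without both (0.119), by voom (0.0671) and with the cage block (0.0886).

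Among 18 targets of the glucocorticoid receptor Fkbp5 and Tsc22d3 rose by 0.90 ± 0.23 and 0.96 ± 0.29 (adjusted p = 0.02 and 0.0476) and Angptl4 fell, the fall being lost by voom at 0.052 and with the cage block at 0.0549. KO mouse 7 was the highest for Fkbp5 and Tsc22d3, and without it their adjusted p values were 0.0862 and 0.191. Fkbp5 was also lost without WT mice 4 and 8 (0.059 and 0.079), and Tsc22d3 without any 1 mouse (0.0522 to 0.191), and without both they were at 0.119 and 0.065. In polyamine synthesis Odc1, its rate-limiting enzyme, rose from 53.8 CPM ± 6.62 to 87.6 ± 8.93 (0.70 ± 0.14, adjusted p = 0.00395, and 0.0637 without both mice that stood apart) and Srm, spermidine synthase, from 16.9 ± 2.50 to 32.0 ± 4.89 (0.92 ± 0.22, adjusted p = 0.0138, lost without WT mouse 3 at 0.0531 and without both at 0.0807). Atoh8, a target of bone morphogenetic protein signalling, fell by 1.08 (SE 0.29, adjusted p = 0.0291, lost without WT mice 3, 4 and 8 and KO mice 6 and 7 at 0.0639 to 0.108 and without both at 0.127).

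Several groups had no call by edgeR, DESeq2 or limma voom. In oxidative phosphorylation all 32 genes lay below 0 (-0.23 to -0.01, median -0.12), with 2 at an unadjusted p under 0.05, and 1 of them above 0 when scaled by total counts alone. In 35 ribosomal protein genes the median was -0.05, with 0 under that p. Of 24 interferon response genes 22 lay above 0 and 7 had an unadjusted p under 0.05; the fit of the 8 libraries alone called 5 higher. Among 22 acute phase genes 1 higher and 3 lower genes had an unadjusted p under 0.05. Over all genes 2851 of 14836 had such a p. The plot of gene lists includes oxidative phosphorylation but not the other groups of this paragraph.

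**Figure D5:**
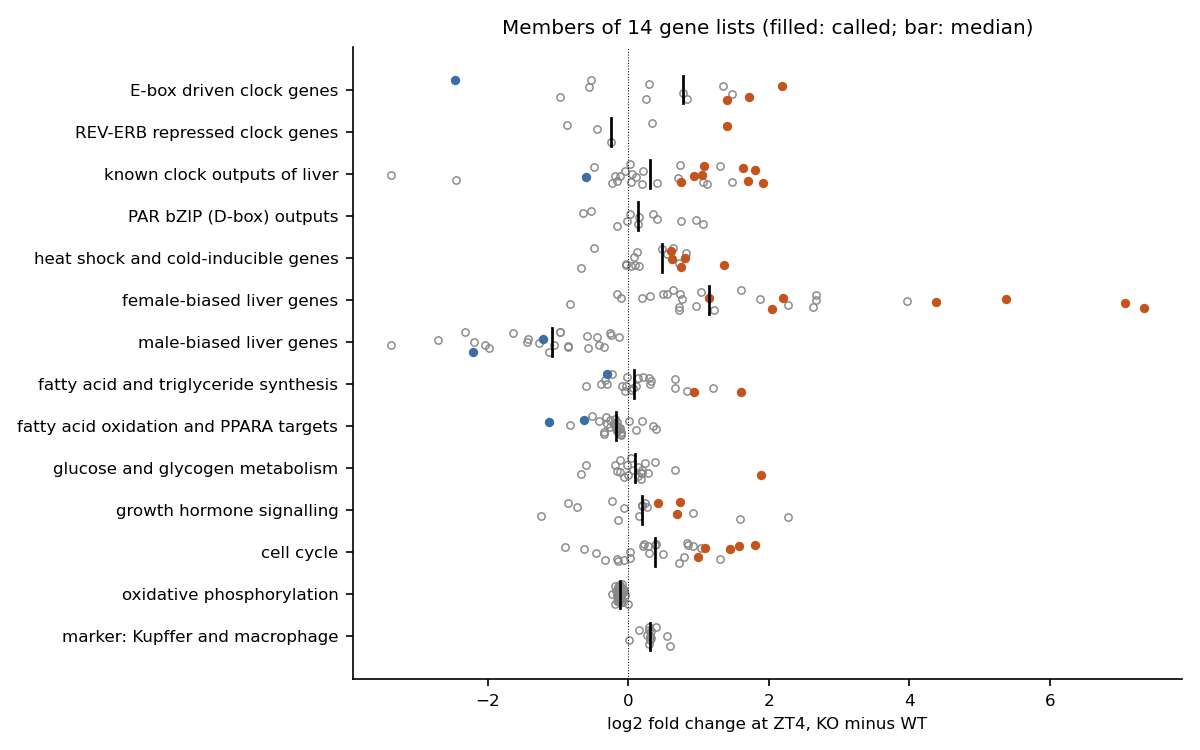
Log2 fold change at ZT4 (KO minus WT, n = 4 each) of the members of 14 gene lists, 1 point per gene, filled where called (orange higher, blue lower), with the list's median as a bar. Female-biased genes reach above 7 and male-biased genes all lie below 0, whereas genes of oxidative phosphorylation cluster at a median of -0.12.

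The libraries carried the markers of liver. The summed level of hepatocyte markers was 39604 to 45346 CPM in WT and 34849 to 43588 CPM in KO, with 0 of 12 tested called by edgeR, DESeq2 or limma voom and 1 lower at an unadjusted p under 0.05. Kupffer cell and macrophage markers summed to 1768 to 2166 CPM in WT and to 2336 to 2684 CPM in KO. These ranges do not overlap, all 14 genes lay above 0 (median 0.31), 2 had an unadjusted p under 0.05, and 0 were called by edgeR, DESeq2 or limma voom, against 3 in the fit of the 8 libraries alone. Markers of liver endothelium summed to 621 to 706 CPM and 702 to 864 CPM, and 2 of 12 rose, against 1.90% of all genes. Lyve1, a hyaluronan receptor of sinusoidal endothelium, was at 18, 21, 20.8 and 22.7 CPM in the WT mice and at 51.4, 37.6, 39.3 and 46.1 CPM in the KO mice (1.08 ± 0.22, adjusted p = 0.00425). Gpr182, another gene of these cells, rose by 0.49 ± 0.11 (adjusted p = 0.0104, lost without KO mouse 1 at 0.0585). In bulk liver, a change in the number of cells of a type and in RNA per cell cannot be told apart, and the part of these cells in the results above was not tested. Markers of neutrophils summed to 8 to 23.5 CPM and 5.34 to 10.7 CPM, and those of T and NK cells to 16.6 to 27.2 CPM and 14.8 to 21 CPM. All 8 neutrophil genes tested (median -0.79) and all 13 T and NK cell genes (median -0.27) lay below 0, with 0 called by edgeR. B and plasma cell markers summed to 11.5 to 19.6 CPM and 12.3 to 22.6 CPM, with 6 of 7 genes above 0. Red blood cell markers summed to 45.8 to 132 CPM and 59.4 to 96.5 CPM, with 5 of 6 above 0. Stellate cell markers summed to 634 to 801 CPM and 611 to 908 CPM, and cholangiocyte markers to 53.6 to 70.0 CPM and 55.5 to 96.9 CPM. The pancreas marker Pnlip and the muscle marker Ckm were at 0 in all 8 libraries. Other markers of these tissues had low counts in each library, with 7 to 22 for Cela2a of pancreas and 10 to 24 for Mylpf of muscle.

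The difference at ZT4 was tested against the mean difference of the other 5 times, in which opposite signs cancel. A departure from that mean therefore does not make a difference particular to ZT4. The ZT4 difference departed from it for 605 genes (4.08%), upward for 299 and downward for 306, and 340 of these were also called at ZT4. Single mice moved that count too: it was 232 without KO mouse 7, 252 without WT mouse 3, 304 without WT mouse 8, 308 without KO mouse 1, 369 without KO mouse 6 and 375 without WT mouse 4. Marveld1 (ENSMUSG00000044345, mm9 chromosome 19, 42221890 to 42226185), a membrane protein gene, had the smallest p of the whole comparison. It was at 35.2, 35.5, 33.0 and 34.0 CPM in the WT mice and at 75.9, 74.5, 66.8 and 76.6 CPM in the KO mice, 2 narrow groups far apart. The difference of 1.09 ± 0.13 (adjusted p = 2.41e-06) exceeded the mean difference of the other times by 1.13 ± 0.14 (adjusted p = 5.26e-06), and KO mice at ZT4 also lay above the WT daily mean (0.37 ± 0.09, adjusted p = 0.0427).

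Ivns1abp, which encodes an actin-binding kelch protein, was at 97.9 CPM ± 6.44 in WT and 150 ± 12.1 in KO (0.62 ± 0.09), 0.82 ± 0.10 above the mean difference of the other times (adjusted p = 5.26e-06). The differences of Pdxk, pyridoxal kinase, and Fgf1, a growth factor, were 0.81 ± 0.13 and 0.84 ± 0.12 above that mean (adjusted p = 0.000745 and 0.000176). Downward, Spon2 and Rfx4 differed from the mean of the other times by -2.33 ± 0.40 and -1.93 ± 0.34, Cd9, a tetraspanin, by -1.60 ± 0.28, Hsd3b7 by -0.92 ± 0.15, Fgfr2, a growth factor receptor, by -0.79 ± 0.14 and Hnrnpl, a splicing factor, by -0.49 ± 0.08 (adjusted p = 0.000372 to 0.00139). All 10 were called at ZT4 in each fit that left out 1 mouse. At ZT0 Marveld1 (WT 37.4, KO 65.0 CPM) and Spon2 (WT 24.1, KO 8.67 CPM) lay in the same direction as at ZT4. At ZT12 they lay in the opposite one (Marveld1 WT 96.7, KO 57.0 CPM, Spon2 WT 1.66, KO 15.9 CPM). Among clock genes Per2 (2.20 ± 0.44, adjusted p = 0.00333), Cry1 (1.46 ± 0.42, adjusted p = 0.0414), Nr1d1 (-3.07 ± 0.72, adjusted p = 0.0111) and Npas2 (-3.32 ± 0.73, adjusted p = 0.00717) departed from the mean of the other times. Per2 was also higher in KO at ZT0 (36.7 CPM, WT 8.42) and lower at ZT12 (33.8 CPM, WT 75.7). Nr1d1 was also lower in KO at ZT8 (13.3 CPM, WT 108) and higher at ZT16 (25.6 CPM, WT 2.37). Npas2 was not called at ZT4 itself. In KO it was higher at ZT8 (5.28 CPM, WT 0.173), ZT12 (11.3 CPM, WT 0.0678) and ZT16 (9.82 CPM, WT 2.18). It was lower in KO at ZT0 (4.48 CPM, WT 14.8) and ZT20 (9.96 CPM, WT 13.3). Of the rises in female-biased genes, those of Cyp3a16 and Sult2a1 did not pass the test against the other times (1.26 ± 1.99, adjusted p = 0.772, and 2.03 ± 1.38, adjusted p = 0.427), and both were far above the WT daily mean (7.17 ± 0.81 and 4.19 ± 0.64, adjusted p = 4.04e-07 and 0.000244).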

How the data were processed

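Poly-A RNA of liver was sequenced from 48 mice, of which the 8 of ZT4 are compared here. Libraries were made with a kit that does not mark strand over 13 PCR cycles, per the labels' protocols, so overlapping and antisense genes cannot be separated. Bases were called with CASAVA and reads aligned with STAR 2.4.0f1 to build mm9, per the submitters' processing notes; the counting step and gene models are not given in the sources used here. The deposited values are whole-number read counts per gene that the authors made for 23732 genes. Totals in all 48 libraries lay within 33562272 to 34035644, so depth had been evened out before deposit. The column names give the time as CT and the labels as ZT.

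Genes kept by filterByExpr (minimum count 10) went into edgeR (version 4.0.16, R 4.3.3) over all 48 libraries with TMM scaling (0.988 to 1.07 at ZT4) and 1 mean per group (36 residual degrees of freedom). Contrasts were KO minus WT at ZT4, that difference minus its mean over the other 5 times, and KO at ZT4 minus the mean of the 6 WT groups, with Benjamini-Hochberg adjustment over 14836 genes. These held 99.975% of counts. Standard errors were derived from F statistics. The script was tested on simulated data. Between replicate libraries the variance was 36.7 to 89.9 times that of counting, so none was a repeat deposit. The p values measure the spread between these mice. With no molecular identifiers, PCR copies may be counted.

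Alternatives were the 8 libraries alone, DESeq2 1.42.0, limma voom 3.58.1 (also with cage as a random block), median-ratio factors, no TMM, no filter, a mean of at least 1 CPM, body weight as covariate, and each mouse left out. Leaving out both WT mouse 8 and KO mouse 5 was added after seeing the data. Named genes are all members of the 3 clock loop lists, the 12 called genes that rose most and the 12 that fell most (at 5 CPM or more in the higher group, without predicted genes), the 10 smallest p values of the test against other times, and up to 5 members of each other list. Lonrf3, Por, Mup20, Bcl6, Cux2 and 4 genes with D-box letters (Wnt5b, Slc16a12, Slc17a1, E330016A19Rik) fall outside that rule and were added after their values were seen. Members and lists were chosen with earlier results of these data known. A few genes that these rules would name are not reported here and were left out of the lists and their counts, but not of the tests and counts over all genes.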

Additional observations from a re-analysis of the deposited data

Results flagged for a closer look

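Within the 440 groups of 4 mice of the genes named, 23 (5.23%) had 1 mouse far from the other 3, by Dixon's criterion at 95%, and chance gives about 5%. WT mouse 8 was the high one for Dbp (84.4 CPM, others 11.7 to 23.8), Bhlhe41 (14.7, others 2.08 to 4.20), Pnpla2 (122, others 94.4 to 97.9), Ccne1 (1.37, others 0.555 to 0.680), Hba-a1 (21.3, others 8.82 to 9.70) and Hba-a2 (7.82, others 2.52 to 3.28). WT mouse 2 was high for Thrsp (532 CPM, others 128 to 181), Nsdhl (257, others 158 to 161), Cbs (1013, others 863 to 885), Atp5a1 (1250, others 1057 to 1084) and Atp5b (1634, others 1448 to 1460), and low for Sms (5.70, others 7.19 to 7.42). WT mouse 4 was high for Col1a1 (31.9 CPM, others 11.2 to 13.4) and Col1a2 (45, others 23.7 to 25.2) and at 0 for Slc4a1 (others 0.209 to 0.237).

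Among KO mice, mouse 7 was high for Fos (27.1 CPM, others 1.85 to 3.63) and low for Hsd3b7 (377, others 473 to 488). KO mouse 5 was high for Trib3 (4.43 CPM, others 1.48 to 1.86), Atp5f1 (337, others 317 to 320) and Odc1 (101, others 81.5 to 84.1). KO mouse 1 was high for Pfkl (56.9 CPM, others 39.8 to 42.7) and Serpina1a (2191, others 1734 to 1792), and KO mouse 6 low for Prlr (522, others 598 to 603).

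The difference at ZT4 departed from the mean difference of the other 5 times for 605 genes by the test of that contrast. The 10 with the smallest p were Ivns1abp (0.82), Marveld1 (1.13), Fgf1 (0.84), Hnrnpl (-0.49), Pdxk (0.81), Hsd3b7 (-0.92), Spon2 (-2.33), Rfx4 (-1.93), Cd9 (-1.60) and Fgfr2 (-0.79), given as log2 differences between differences.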

How the results depend on the processing

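No paired analysis was possible because each mouse number occurs once in the labels, and 1 cage alone held mice of both genotypes at ZT4. Cage was a random block over all 48 libraries instead. Leaving out 1 mouse gave 203 to 539 calls at ZT4 (106 to 279 higher, 90 to 260 lower), 232 to 526 against the other times and 27 to 135 against the WT daily mean. Leaving out both WT mouse 8 and KO mouse 5 gave 193 (97 higher, 96 lower), 277 and 75. Fewer mice alone lower the counts, and how much of the drop comes from which mice was not tested. Without TMM 168 genes were lower and 197 differed from the WT daily mean. That comparison gave 237 with DESeq2 and 56 with body weight in the model, and the comparison with the other times gave 384 with no filter on low counts; the cause was not tested. Other alternatives gave 407 (no filter) to 811 (DESeq2) calls at ZT4, 669 with the 8 libraries alone (392 of them among the 563) and 466 with cage as a random block (correlation 0.0806). The difference in body weight ran from -2.25 to 0.0833 g when 1 mouse was left out; it changed sign to 0.0833 g without KO mouse 1. Of the genes named, 13 calls were lost with the 8 libraries alone, 13 by limma voom, 16 with the cage block, 10 with no filter, 7 with body weight in the model, 4 without TMM, 1 with median-ratio factors and 0 with DESeq2. No named gene that was called reversed its direction under any alternative run. At this depth genes under 1 CPM rest on few counts, as Cyp3a41b in WT (0 to 6 counts per mouse).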
